A study of Mus musculus with 6 samples.

Results

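The genes described here encode enzymes that break down leucine, isoleucine and valine, the branched-chain amino acids, and the proteins that switch this breakdown on and off. They are Bcat2, Bckdha, Bckdhb, Dbt, Bckdk, Ppm1k, Ivd, Mccc1, Hibch and Hibadh, taken by name. They are 10 of 21730 annotated genes with at least 1 read, and they had reads on 47 of 59371 detected transcripts. The authors' transcript identifiers were assigned to these genes by the GENCODE M21 annotation of the mouse genome build GRCm38.

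Interscapular brown adipose tissue, a fat depot that makes heat, was taken from male wild type C57BL/6N mice of 20 weeks. The cold group (mice 4, 11 and 15) spent 24 h at 4 °C, housed singly, and the control group (mice 2, 9 and 14), written ctrl in the labels, comes from animals held at 22 to 24 °C. The labels do not state that control mice were also housed singly, so single housing and cold cannot be told apart. Polyadenylated RNA of each mouse was sequenced by Oxford Nanopore direct cDNA sequencing, in which long reads are taken from cDNA without PCR, and each library was run on 2 flow cells. Counts of both flow cells were summed, and n counts mice.

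Branched-chain amino acids are first stripped of their amino group by a transaminase, and the resulting keto acids are then committed to breakdown by the branched-chain keto acid dehydrogenase complex in mitochondria. A kinase switches that complex off by phosphorylating it, and a phosphatase switches it on again. Later enzymes differ between the amino acids and lead to acetyl-CoA, acetoacetate or propionyl-CoA. Brown fat is known to take up and burn these amino acids during heat production.

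The sequences that follow are given as a description, and no test result rests on them. They are the 250 bases upstream of the RefSeq start sites (GRCm38.p6) of the kinase gene Bckdk, of the phosphatase gene Ppm1k, and of both start sites of Bckdhb, which carry transcripts that are described below. Each is written 5′ to 3′ on the gene's own strand. Capitals mark matches to CCAAT, the CCAAT box, or GGGCGG, the GC box, on either strand.
Bckdk, chr7:127903823-127904072 (+): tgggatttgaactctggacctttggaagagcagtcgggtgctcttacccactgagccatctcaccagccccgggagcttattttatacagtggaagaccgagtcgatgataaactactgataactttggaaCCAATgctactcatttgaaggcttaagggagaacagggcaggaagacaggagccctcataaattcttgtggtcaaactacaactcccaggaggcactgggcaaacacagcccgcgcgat
Ppm1k, chr6:57535488-57535737 (-): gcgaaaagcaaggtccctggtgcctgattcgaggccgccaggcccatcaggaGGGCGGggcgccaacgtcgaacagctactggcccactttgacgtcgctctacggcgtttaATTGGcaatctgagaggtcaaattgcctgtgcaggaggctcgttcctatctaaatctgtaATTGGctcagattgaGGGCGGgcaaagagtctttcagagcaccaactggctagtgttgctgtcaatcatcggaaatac
Bckdhb, upstream start, chr9:83924887-83925136 (+): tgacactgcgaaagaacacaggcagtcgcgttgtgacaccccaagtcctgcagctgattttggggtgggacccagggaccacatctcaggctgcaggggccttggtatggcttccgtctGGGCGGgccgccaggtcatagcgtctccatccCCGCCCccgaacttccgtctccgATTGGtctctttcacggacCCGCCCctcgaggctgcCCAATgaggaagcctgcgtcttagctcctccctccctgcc
Bckdhb, internal start, chr9:83948531-83948780 (+): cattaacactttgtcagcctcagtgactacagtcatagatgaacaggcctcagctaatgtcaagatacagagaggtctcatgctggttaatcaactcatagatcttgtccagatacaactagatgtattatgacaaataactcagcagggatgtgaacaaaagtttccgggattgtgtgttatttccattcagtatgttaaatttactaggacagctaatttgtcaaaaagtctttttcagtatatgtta

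The Bckdk window held 1 CCAAT match and no GGGCGG match, and the Ppm1k window held matches to both motifs. The upstream Bckdhb window had 5 matches, while the window before the internal start had 0. In all, 11 windows of 9 members were available from RefSeq, and Dbt had no window. CCAAT was found on at least 1 strand in 6 of them, against 33.8% of 32851 promoter windows of the same length, and GGGCGG in 5, against 32.7%. The E-box CACGTG (6.02% of all windows), the cAMP response element TGACGTCA (1.55%) and the estrogen-related receptor element TCAAGGTCA (0.387%) were in 0 of the 11. No motif contains another, and matches are a description of the sequence only.

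Annotated differences between transcripts are shown for Mccc1 and Hibch. The 2 most-read Mccc1 transcripts, on chromosome 3, differ at an internal exon end, where Mccc1-205 keeps 11 bases at the end of the exon chr3:35989833-35989965 that Mccc1-201 (chr3:35989844-35989965) leaves out. The spliced sequences around that junction are shown on the minus strand, with the additional bases in capitals.
Mccc1-205: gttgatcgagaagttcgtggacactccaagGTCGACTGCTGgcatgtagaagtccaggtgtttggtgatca
Mccc1-201: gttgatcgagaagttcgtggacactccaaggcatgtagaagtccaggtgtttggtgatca

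Hibch-202 lacks 2 exons of Hibch-201, of 120 bases (chr1:52913731-52913850) and 34 bases (chr1:52916637-52916670). Both exons are in capitals, between the last 15 bases of the exon before and the first 15 of the exon after.
Hibch-201: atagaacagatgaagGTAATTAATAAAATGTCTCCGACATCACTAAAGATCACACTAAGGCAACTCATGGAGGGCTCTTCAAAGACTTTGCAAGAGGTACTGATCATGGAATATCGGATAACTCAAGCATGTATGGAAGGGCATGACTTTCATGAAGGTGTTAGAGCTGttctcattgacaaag
Hibch-202: atagaacagatgaagttctcattgacaaag

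Library depth ranged from 1657985 to 2238056 reads per mouse, so that 3 reads stood for 1.34 to 1.81 CPM (reads scaled to a common library size with TMM factors, edgeR's correction for library composition). All 8 brown adipocyte markers had reads, with a summed level of 15890 to 17770 CPM in control and 20010 to 20670 CPM in cold mice, and 3 of them were called higher and 1 lower. Of the white adipocyte markers Hoxc9 and Hoxc10 had 0 reads. The list summed to 64.2 to 99.5 CPM in control and 109 to 144 CPM in cold mice, with no overlap, and 1 of 3 tested was called higher. The extraction text of the labels mentions a different fat depot than the tissue fields, which were followed. Summed skeletal muscle markers spanned 88.5 to 629 CPM in control and 266 to 3354 CPM in cold mice. None of the 10 muscle markers passed the gene test. Because muscle varied this much between libraries, each member is also given from a fit with the muscle level as a covariate and from a fit without control mouse 2 and cold mouse 15 (the lowest and highest). Summed endothelial markers were 197 to 206 CPM in control and 243 to 253 CPM in cold mice, with no overlap, and 1 of 5 was called higher. Summed fibroblast and preadipocyte markers overlapped, at 226 to 264 and 192 to 246 CPM, with 2 of 4 tested called lower. The part of these cell types in the results was not tested. In such bulk samples, a smaller share of one cell type and less RNA per cell cannot be told apart.

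The comparison of cold with control asked which steps of the pathway differed at the mRNA level after a day in the cold. Dbt, the acyltransferase core of the dehydrogenase complex, was 1.95-fold higher in the cold, and Bcat2 and Bckdhb were also higher. Bckdk, the kinase that inactivates the complex, was 1.65-fold lower, and Bckdha was lower. The 4 enzymes of the later leucine and valine steps, Ivd, Mccc1, Hibch and Hibadh, did not pass the test. All 10 members passed the filter on low counts, and 5 passed edgeR's quasi-likelihood test at an adjusted p under 0.05 over all genes, 3 of them higher and 2 lower. Over all 8684 tested genes 19.5% passed, 9.75% higher and 9.77% lower. In 8 members the groups did not overlap, against 35.1% of all tested genes. The median log2 fold change of the members was -0.08 and their median absolute log2 fold change 0.41, beside 0.00 and 0.26 over all tested genes.

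**Figure D1:**
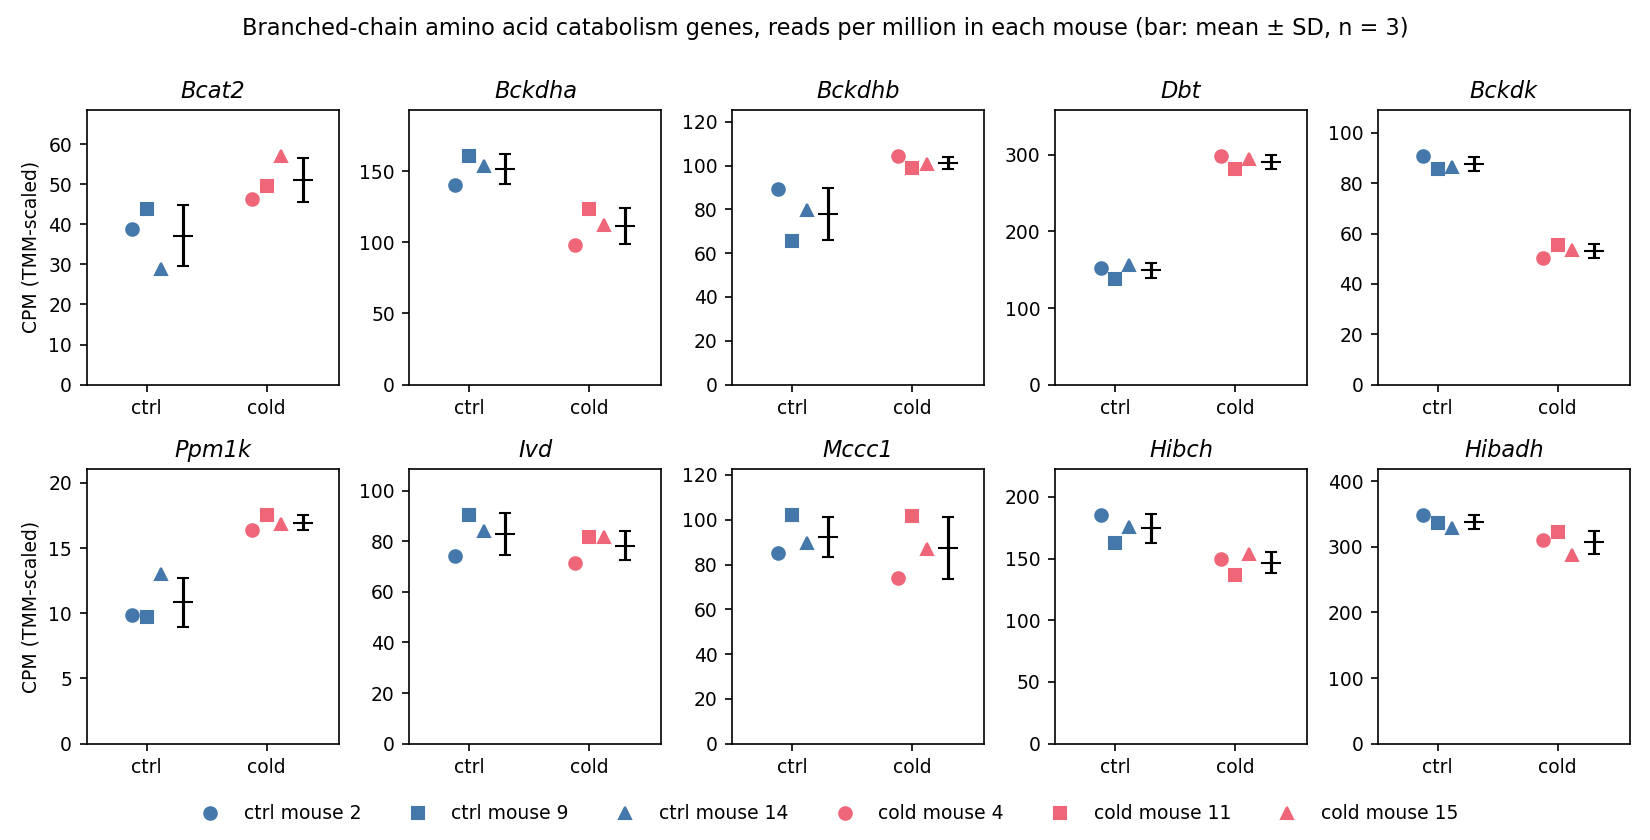
Level of each gene (vertical axis, CPM scaled by TMM, each panel from 0) in the 3 ctrl mice (blue) and the 3 cold mice (red), with a bar for mean ± SD. Dbt lies at 138 to 157 CPM in control and 281 to 299 CPM in cold mice, Bckdk at 85.7 to 90.8 and 50.2 to 55.6 CPM, while the groups overlap in Ivd and Mccc1.

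The first step is catalysed by Bcat2, the mitochondrial branched-chain aminotransferase (chromosome 7, 45570153 to 45589711). It had 38.8, 43.9 and 28.8 CPM in control mice 2, 9 and 14, and 46.4, 49.6 and 57.1 CPM in cold mice 4, 11 and 15. Every cold mouse was above every control mouse, with control mouse 14 the lowest. The means were 37.2 ± 7.65 and 51.0 ± 5.48 CPM (SD, n = 3), a log2 fold change of 0.46 with an SE of 0.15 (adjusted p = 0.0388). Without control mouse 14 the log2 fold change was 0.29 (adjusted p = 0.24), and the call was also lost without control mouse 2, cold mouse 11 or cold mouse 15 (adjusted p = 0.0745, 0.0751 and 0.134). With the muscle covariate the log2 fold change was 0.42 (adjusted p = 0.166), and without control mouse 2 and cold mouse 15 it was 0.41 (adjusted p = 0.189).

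The dehydrogenase complex is built from a decarboxylase of alpha and beta subunits, the Dbt core and the lipoamide dehydrogenase Dld. Dbt (chromosome 3, 116513070 to 116549981) had 153, 138 and 157 CPM in the control mice and 299, 281 and 294 CPM in the cold mice. Each cold mouse was far above the control range, and the mice of a group lay close together. The means were 149 ± 9.73 and 291 ± 9.11 CPM, a log2 fold change of 0.96 with an SE of 0.09 (adjusted p = 4.11e-08). Dbt was called in all 17 alternative settings, with log2 fold changes of 0.90 to 1.00, including 0.98 with the muscle covariate and 0.98 without control mouse 2 and cold mouse 15, and it gave 0.96 on flow cell 1 and 0.93 on flow cell 2.

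The subunits of the decarboxylase differed in direction. Bckdha, the alpha subunit that carries the regulatory phosphorylation sites (chromosome 7, 25629946 to 25658981), had 140.0, 161 and 154 CPM in control and 98.1, 124 and 112 CPM in cold mice. All cold mice were below all control mice. The log2 fold change was -0.45 with an SE of 0.10 (adjusted p = 0.00324), from 151 ± 10.5 to 111 ± 12.9 CPM. It was called in all 17 alternatives, with -0.57 under the muscle covariate and -0.50 without control mouse 2 and cold mouse 15. On flow cell 2 alone it was -0.42 (adjusted p = 0.0425), and there the groups overlapped before TMM scaling. Bckdha shares 1171 exon bases with B3gnt8 on the opposite strand, and whether the authors' counting used strand is not given in the sources used here. B3gnt8 had 182 reads, 101 of them in control mice, against 1530 on Bckdha, and reads from the shared stretch can have been counted on either gene. Of the other members, Mccc1 shares 94 exon bases with Gm15952, 198 with Mccc1os and 321 with B230207O21Rik, all on the opposite strand. These had 13, 5 and 0 reads against 1045 on Mccc1. Bcat2 shares 622 with 0610005C13Rik on the opposite strand and Hibadh 122 with Gm24355 on the same strand, and both of these had 0 reads.

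Bckdhb, the beta subunit (chromosome 9, 83925145 to 84124240), had 89.1, 65.3 and 79.6 CPM in control and 104, 98.7 and 101 CPM in cold mice. The cold mice lay within a narrow span above a wider control range, with control mouse 9 the lowest. The means were 78.0 ± 12.0 and 101 ± 2.87 CPM, a log2 fold change of 0.38 with an SE of 0.11 (adjusted p = 0.0209). The call was lost without control mouse 9, control mouse 14 or cold mouse 4 (adjusted p = 0.141, 0.0555 and 0.0811), and on flow cell 2 alone the log2 fold change was 0.22 (adjusted p = 0.438). It was 0.47 with the muscle covariate and 0.49 without control mouse 2 and cold mouse 15 (adjusted p = 0.0266 and 0.0264). Dld, the subunit shared with other dehydrogenase complexes, was measured at 613 ± 34.6 and 683 ± 1.58 CPM and did not pass the test (log2 fold change 0.16, adjusted p = 0.135).

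Of the regulators, Bckdk, the kinase that inactivates the complex (chromosome 7, 127904082 to 127910221), had 90.8, 85.7 and 86.5 CPM in control and 50.2, 55.6 and 53.6 CPM in cold mice. The groups were far apart and each was narrow. The means were 87.7 ± 2.74 and 53.1 ± 2.71 CPM, a log2 fold change of -0.72 with an SE of 0.11 (adjusted p = 5.86e-05). All 17 alternatives called it, with log2 fold changes of -0.75 to -0.68, among them -0.73 with the muscle covariate and -0.70 without control mouse 2 and cold mouse 15. Ppm1k, the phosphatase that reactivates the complex (chromosome 6, 57506502 to 57535468), had 9.84, 9.70 and 13.0 CPM in control and 16.4, 17.5 and 16.9 CPM in cold mice. The groups did not overlap, but the gene had only 17 to 35 reads per mouse. The log2 fold change was 0.63 with a 95% interval of 0.16 to 1.09 (adjusted p = 0.0528), which did not pass the threshold. Without control mouse 14 it was 0.79 (adjusted p = 0.0485). With the muscle covariate it was 0.55, and without control mouse 2 and cold mouse 15 it was 0.57 (adjusted p = 0.216 and 0.195).

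The 4 later enzymes did not pass the test. Ivd, isovaleryl-CoA dehydrogenase of leucine breakdown (chromosome 2, 118861954 to 118882909), had 74.1, 90.3 and 84.2 CPM in control and 71.5, 81.7 and 81.5 CPM in cold mice. The groups overlapped, and the 95% interval of the log2 fold change ran from -0.32 to 0.14 (adjusted p = 0.65). Mccc1, the biotin-carrying subunit of methylcrotonyl-CoA carboxylase in the same branch (chromosome 3, 35959312 to 36000678), had 85.1, 102 and 89.8 CPM in control and 73.9, 102 and 86.8 CPM in cold mice. These groups overlapped as well, with an interval of -0.33 to 0.17 (adjusted p = 0.706). With the muscle covariate the log2 fold change was -0.21 for Ivd and -0.21 for Mccc1, and without control mouse 2 and cold mouse 15 it was -0.18 and -0.12, none of them called.

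Hibch, the hydrolase that frees hydroxyisobutyrate in valine breakdown (chromosome 1, 52844929 to 52920986), had 185, 162 and 176 CPM in control and 149.8, 137 and 154 CPM in cold mice. All cold mice were below all control mice, by a log2 fold change of -0.25 with an interval of -0.44 to -0.06 (adjusted p = 0.0613). Its adjusted p was 0.0426 without control mouse 9 and 0.0468 when only protein_coding transcripts were summed. The log2 fold change was -0.22 with the muscle covariate and -0.24 without control mouse 2 and cold mouse 15 (adjusted p = 0.248 and 0.189). Hibadh, the dehydrogenase that follows Hibch (chromosome 6, 52546228 to 52640389), had 348, 336 and 328 CPM in control and 311, 323 and 288 CPM in cold mice. The groups did not overlap either, with an interval of -0.30 to 0.03 (adjusted p = 0.26). Its log2 fold change was -0.09 with the muscle covariate and -0.07 without control mouse 2 and cold mouse 15 (adjusted p = 0.656 and 0.71).

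**Figure D2:**
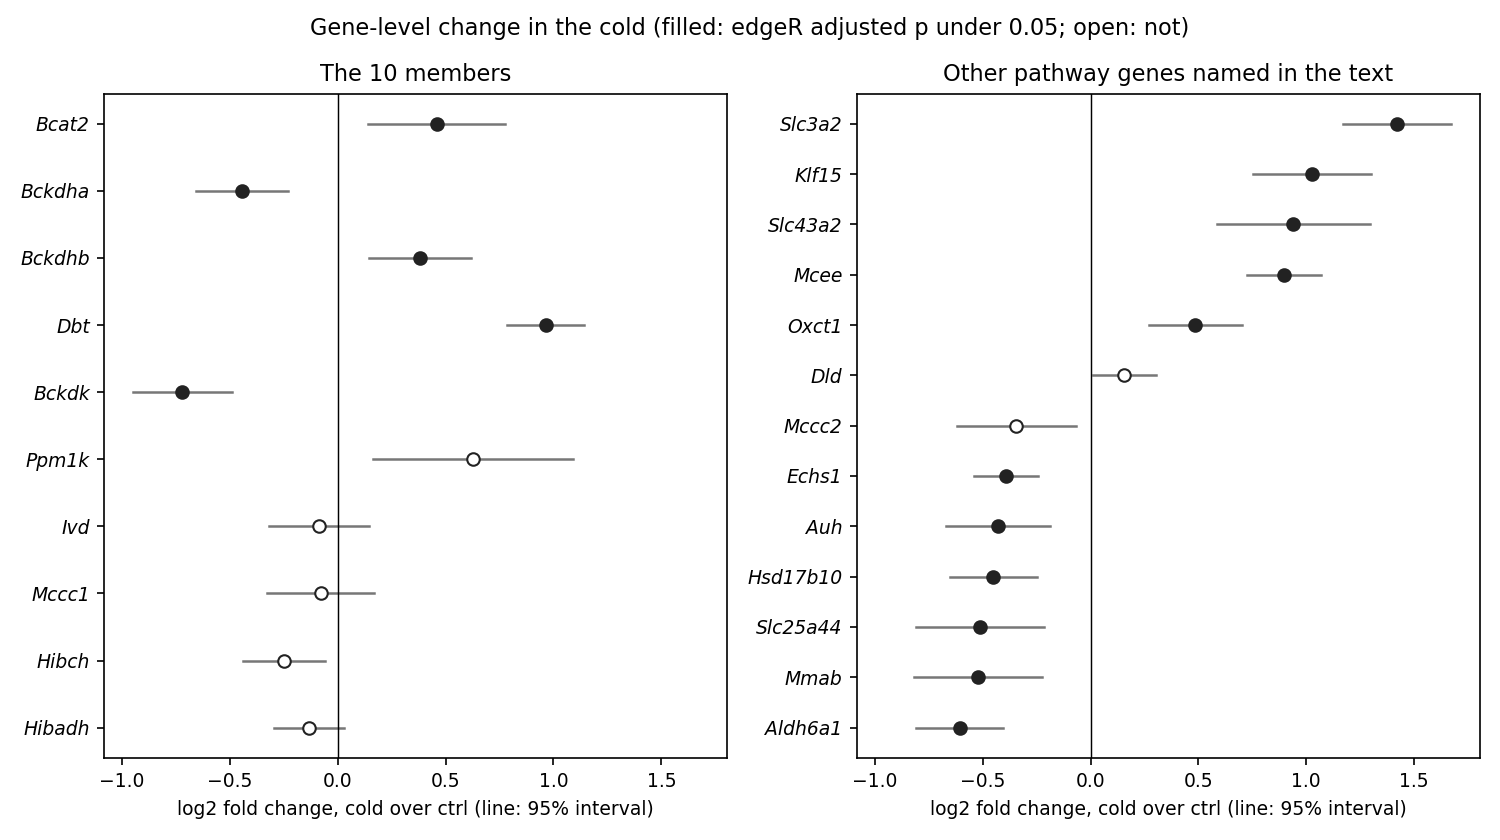
Log2 fold change of cold over ctrl (horizontal axis) for the 10 members (left) and the other tested pathway genes named in the text (right), with a line for the 95% interval and filled points where the edgeR adjusted p is under 0.05. Dbt at 0.96 and Bckdk at -0.72 are the outermost filled points among the members, and Slc3a2 at 1.42 and Aldh6a1 at -0.61 among the other genes shown.

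Levels were set side by side between genes as CPM per kilobase of each gene's most-read transcript. On that scale the order in control mice was Hibadh (185 ± 5.59), Hibch (95.3 ± 6.29), Bckdha (79.7 ± 5.54), Bckdhb (52.8 ± 8.10), Dbt (45.2 ± 2.95), Mccc1 (31.5 ± 2.99), Bckdk (25.8 ± 0.81), Ivd (22.6 ± 2.24), Bcat2 (21.0 ± 4.31) and Ppm1k (1.95 ± 0.34). Bckdhb and Dbt overlapped in these mice, as did Ivd and Bcat2, and the other neighbours did not. In the cold mice Dbt stood in place 2, with 88.2 ± 2.76 CPM per kilobase, after place 5 in control mice. Bckdk stood in place 9 with 15.6 ± 0.79, after place 7. Ppm1k remained lowest at 3.05 ± 0.10, and of the neighbours in the cold order only Mccc1 and Bcat2 overlapped. Whether read numbers rose with transcript length in these long-read libraries was not tested, so these places hold for the per-kilobase scale only. Without division by length the order was another. Control means were then 149 CPM for Dbt, 92.3 for Mccc1, 87.7 for Bckdk, 82.9 for Ivd and 78.0 for Bckdhb.

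The balance between members was read as the number of reads of one gene per read of another within a mouse, which does not depend on library scaling. These 7 ratios were chosen after the levels had been seen and carry no test, and since they are not corrected for length only their difference between the groups is described. Bckdk per Ppm1k was 9.24, 8.84 and 6.64 in control and 3.06, 3.17 and 3.17 in cold mice. The ratio of Bckdk reads to Ppm1k reads was thus 2.60-fold lower in the cold, with no overlap. It rests on only 17 to 35 Ppm1k reads per mouse, and Ppm1k itself did not pass the edgeR test (adjusted p = 0.0528). Dbt per Bckdha was 1.09, 0.86 and 1.02 in control and 3.04, 2.27 and 2.62 in cold mice, 2.66-fold higher. Within the decarboxylase, Bckdhb per Bckdha was 1.78-fold higher in the cold. Dbt per Bckdhb was 1.49-fold and Bcat2 per Bckdk 2.29-fold higher, both without overlap. Apart from Dbt per Bckdhb, the pairs named so far set a gene higher in every cold mouse against one lower in every cold mouse. The lack of overlap in those pairs follows from the gene levels. Hibadh per Hibch and Ivd per Mccc1, which compare neighbouring enzymes of the valine and leucine branches, overlapped between the groups.

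**Figure D3:**
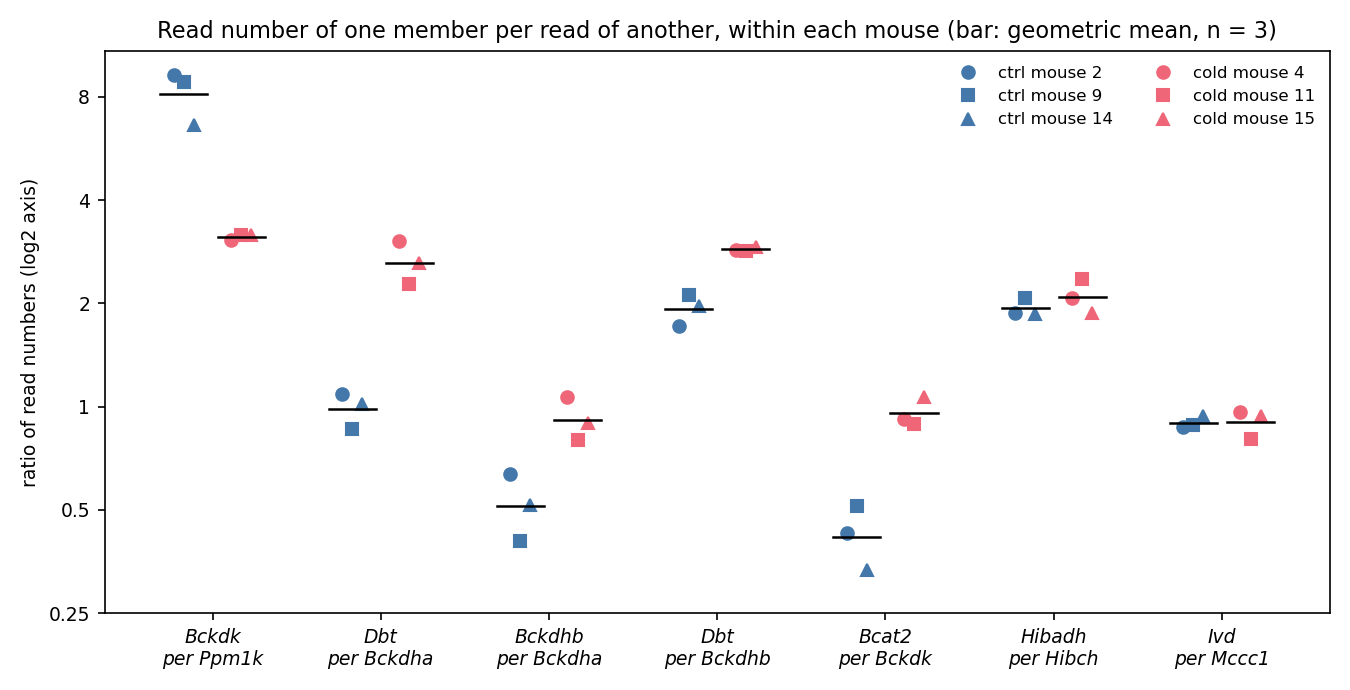
Reads of one member per read of another within each mouse (vertical axis, log2 scale), for 3 ctrl mice (blue) and 3 cold mice (red), with a bar for the geometric mean. Bckdk per Ppm1k lies at 6.64 to 9.24 in control and 3.06 to 3.17 in cold mice, and the groups overlap for Hibadh per Hibch and Ivd per Mccc1.

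Reads were next compared per transcript. Of the 47 member transcripts with a read 18 passed the filter, and 5 were called, 3 higher and 2 lower. Over all 11699 tested transcripts 16.3% were called, 8.33% higher and 7.95% lower. The called ones were Dbt-201 (log2 fold change 0.95, adjusted p = 7.49e-09), Bcat2-201 (0.53, adjusted p = 0.0422) and Bckdhb-205 (0.64, adjusted p = 0.0198), which were higher, and Bckdk-201 (-0.74, adjusted p = 8.71e-05) and Bckdha-201 (-0.47, adjusted p = 0.00294), which were lower. Bckdhb-205 was not called without control mouse 9, control mouse 14 or cold mouse 4 (adjusted p = 0.125, 0.0673 and 0.13). Bcat2-201 was not called without control mouse 2, control mouse 14, cold mouse 4, cold mouse 11 or cold mouse 15 (adjusted p = 0.138, 0.169, 0.0815, 0.0516 and 0.149). Bckdha-201 was not called on flow cell 2 alone (adjusted p = 0.104). Dbt, Ppm1k, Ivd and Hibadh had nearly all their reads on 1 transcript each, from 96.6% in Ivd to 99.9% in Dbt.

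The reads of Bckdhb were spread over 3 tested transcripts. Bckdhb-206 and Bckdhb-201, which begin at the upstream start shown above, held 39.0% and 26.9% of its reads. These begin at 83925145 and 83925150, end at the same base, and are 1477 and 1472 bases long. How a read was placed on a Bckdhb transcript is not in the counts. The shares and the usage test therefore rest on the authors' assignment of reads. Bckdhb-205, which begins at the internal start at 83948781, held 25.3, 23.4 and 23.4% in control and 32.4, 27.9 and 26.0% in cold mice. The groups did not overlap, at 24.1 ± 1.10% and 28.8 ± 3.28%. How often such shares do not overlap over all transcripts was not counted. The usage test, which asks whether a gene's reads are split differently over its transcripts, gave Bckdhb an unadjusted p of 0.456.

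Mccc1 had more reads on Mccc1-205, which the annotation classes as nonsense_mediated_decay, than on the protein_coding Mccc1-201. Over all mice Mccc1-205 held 56.1% and Mccc1-201 40.6% of its reads. Besides the 11 bases shown above, Mccc1-205 reaches 521 bases further at its 3′ end. At the 5′ end it starts at 36000609, while Mccc1-201 starts at 36000678. These differences do not account for all of the gap between their lengths of 2934 and 2455 bases. Which difference placed a read is not in the counts. Mccc1-205 took 53.9 ± 3.44% in control and 58.5 ± 4.18% in cold mice, and the groups overlapped. Hibch-202, without the exons shown above, held 16.2 ± 0.97% of Hibch reads in control and 16.9 ± 0.60% in cold mice, also with overlap.

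Transcript usage could be tested with edgeR's diffSpliceDGE in 6 members (Bcat2, Bckdha, Bckdhb, Bckdk, Mccc1 and Hibch). None was called, each with an adjusted p of 1, and 0 of the 6 had an unadjusted p under 0.05. The gene-level F test of the same tool also called 0, with 0.793 as the lowest adjusted p. Of 2568 genes tested in this way 0.195% were called.

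**Figure D4:**
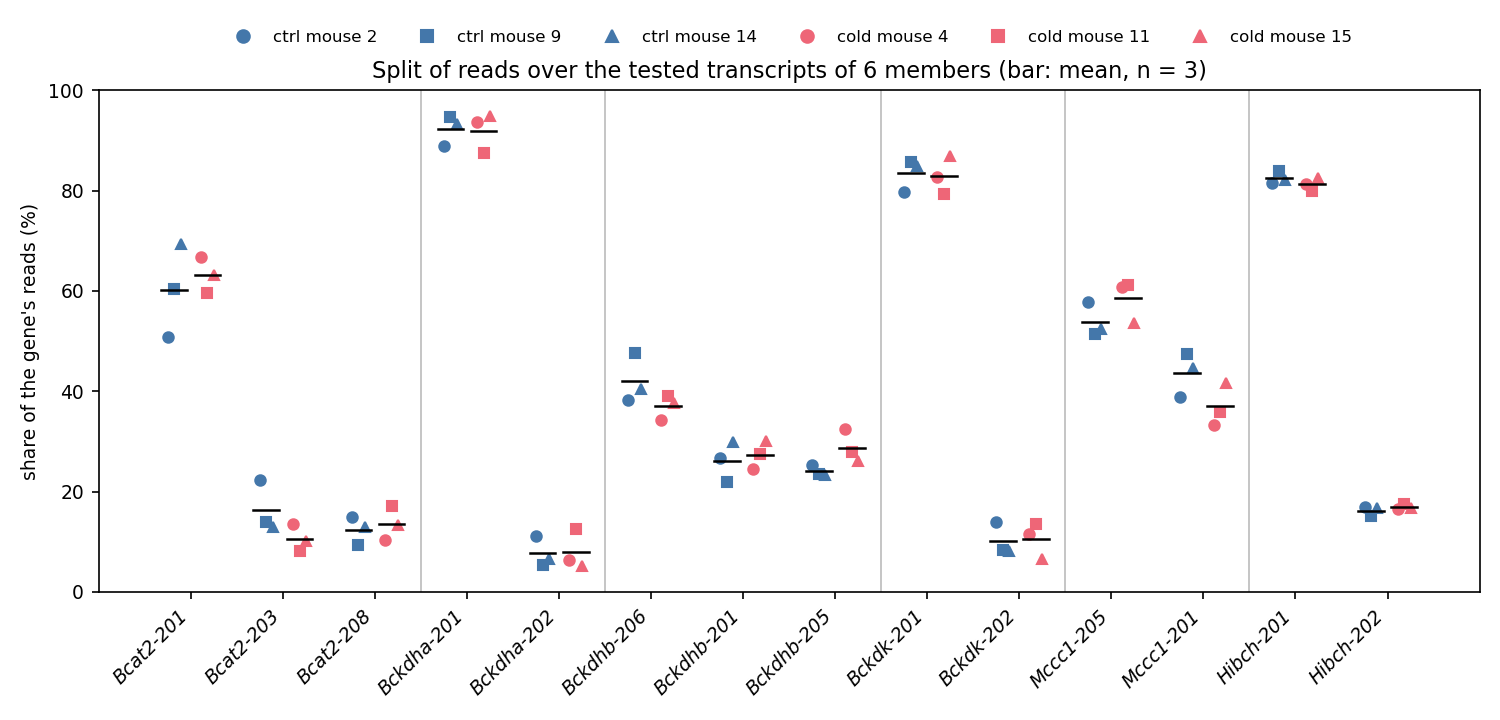
Share of a gene's reads on each tested transcript (vertical axis, percent) in 3 ctrl mice (blue) and 3 cold mice (red), with a bar for the mean, for the 6 members with at least 2 tested transcripts. Mccc1-205 holds 53.9% and 58.5% on average, Hibch-202 16.2% and 16.9%, and Bckdhb-205 24.1% and 28.8%.

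Other genes of branched-chain amino acid uptake, mitochondrial import, breakdown and regulation were taken from a list of 28, of which 24 were tested. Of these 5 were higher and 10 were lower, against 9.75% and 9.77% of all tested genes. The groups did not overlap in 18, against 35.1%, and the median log2 fold change was -0.14, against 0.00 over all tested genes. Among the higher genes, Slc3a2, the heavy chain that brings amino acid transporters to the cell surface, rose from 35.8 ± 2.57 to 95.9 ± 7.84 CPM (log2 fold change 1.42, adjusted p = 2.19e-08). Slc43a2, a transporter of large neutral amino acids, rose from 23.0 ± 1.42 to 44.6 ± 9.90 CPM (0.94, adjusted p = 0.000368). Klf15, a transcription factor known to control genes of this pathway, rose from 35.0 ± 4.31 to 71.3 ± 5.93 CPM (1.03, adjusted p = 6.66e-06). Mcee, the epimerase of methylmalonyl-CoA, rose from 242 ± 20.1 to 452 ± 20.9 CPM (0.90, adjusted p = 6.52e-08), and Oxct1, which activates ketone bodies, from 96.0 ± 8.96 to 135 ± 11.9 CPM (0.48, adjusted p = 0.00179).

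Among the lower genes, Aldh6a1, the dehydrogenase that follows Hibadh in valine breakdown, fell from 236 ± 6.48 to 155 ± 21.8 CPM (log2 fold change -0.61, adjusted p = 9.62e-05). Auh, a hydratase of leucine breakdown, had a log2 fold change of -0.43 (adjusted p = 0.0107). Hsd17b10, of isoleucine breakdown, and Echs1, the short-chain enoyl-CoA hydratase, were also lower (-0.45 and -0.39, adjusted p = 0.00187 and 0.000368), as was Mmab, an enzyme of cobalamin activation (-0.52, adjusted p = 0.0117). Slc25a44, the mitochondrial carrier of branched-chain amino acids, fell from 47.6 ± 5.49 to 33.4 ± 3.24 CPM (-0.51, adjusted p = 0.0136). Hsd17b10 differed between the flow cells, at -0.27 on flow cell 1 alone, where it was not called (adjusted p = 0.111), and -0.89 on flow cell 2 alone. The call of Slc25a44 was lost without control mouse 14, cold mouse 4 or cold mouse 15 (adjusted p = 0.0915, 0.0556 and 0.0523), and without control mouse 2 and cold mouse 15 together (adjusted p = 0.0711). That of Auh was lost without cold mouse 15 (adjusted p = 0.0672), with the muscle covariate (adjusted p = 0.0942) and without control mouse 2 and cold mouse 15 together (adjusted p = 0.11). That of Mmab was lost without cold mouse 4 (adjusted p = 0.0687) and without control mouse 2 and cold mouse 15 together (adjusted p = 0.0633). DESeq2 and flow cell 2 alone called none of Slc25a44, Auh and Mmab, with adjusted p-values of 0.0697 to 0.122. The number of lower genes was 6 with the muscle covariate, 6 without cold mouse 4, 6 without cold mouse 15, and 5 without control mouse 2 and cold mouse 15. The partner subunit of Mccc1, Mccc2, had a log2 fold change of -0.34 and did not pass (adjusted p = 0.0726). Slc7a8, an amino acid transporter that pairs with Slc3a2, was too low to test, with 2, 0 and 0 reads in control and 6, 7 and 17 reads in cold mice.

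For Dbt and Bckdk, the called members with the largest change, the tested genes with the most similar profile over the 6 libraries were found by the root mean square difference of log2 CPM, each centred on its control mean. For Dbt they included Prdx6 (0.04) and Myo1c (0.04), with log2 fold changes of 0.97 and 0.94. For Bckdk they were Suox (0.07), Atxn2l (0.07) and Tap2 (0.07), with -0.66, -0.71 and -0.83. The profiles were ranked over 6 libraries that differ mostly by group, so they describe a like size of change and a like scatter.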

How the data were processed

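The authors deposited raw read counts per transcript, for 6 mice on 2 flow cells each. Reads were mapped by the authors with minimap2 to GRCm38, per the submitters' processing notes; annotation release, use of strand and handling of reads that fit several transcripts were not given in the sources used here. Identifiers were matched to GENCODE M21, and the 172 unmatched transcripts (0.0836% of 11789059 reads) were left out. Counts were summed over flow cells and over the transcripts of a gene.

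Genes and transcripts were tested with edgeR 4.0.16 in R 4.3.3 (quasi-likelihood test, robust, TMM, filterByExpr, no covariate), with Benjamini-Hochberg adjustment over all tested features and calls at 0.05, and transcript usage with diffSpliceDGE (Simes). Adjusted p-values are from these tests. The SE is the log2 fold change over the square root of F. Scripts were tested on simulated data, where the share of false calls among genes was above the nominal level and many of the smaller changes were missed, so adjusted p-values near 0.05 (Bcat2, Ppm1k, Hibch) are borderline on either side. DESeq2 1.42.0 was an alternative. Near copies of the genes were sought with minimap2 2.31. None was found for a member apart from the gene antisense to Bcat2.

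The members, the gene and marker lists and the rule for named genes were chosen with earlier results of these data known. All members were named, and up to 12 called pathway genes by smallest adjusted p. Some genes that the rule names are not reported here, although counts include them. The first fit used edgeR's earlier quasi-dispersion estimator, which called 869 genes higher and 870 lower. The current estimator (847 and 848) was adopted after a set of estimator settings had been run and the adjusted p-values of Dbt, Bcat2, Ppm1k and others had been seen, because it matches an earlier analysis of these data. Both call the same number of members. Ratios, motifs, junctions and the per-kilobase scale were also chosen after values were seen.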

Additional observations from a re-analysis of the deposited data

How the results depend on the processing

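Each value was recomputed under up to 17 alternatives. Dbt, Bckdk and Bckdha were called in all 17, and no called value changed sign. Members called fell from 5 to 3 (higher from 3 to 1) with DESeq2 and with flow cell 2 only. Bcat2 was not called with DESeq2 (log2 fold change 0.46, adjusted p = 0.188), without robust estimation (0.46, adjusted p = 0.0549), with the muscle covariate (0.42), without control mouse 2 and cold mouse 15 (0.41), or on flow cell 1 (0.42) or flow cell 2 (0.53), and leaving out 1 mouse gave 0.29 to 0.60. Bckdhb was not called with DESeq2 (0.38, adjusted p = 0.128) or on flow cell 2 (0.22), and gave 0.26 to 0.48 without 1 mouse. Leaving out 1 mouse gave 0.54 to 0.79 for Ppm1k and -0.31 to -0.20 for Hibch, which with protein_coding transcripts only was called (-0.27).

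Pathway genes called fell from 15 to 9 with DESeq2 and on flow cell 2. Of these, lower genes fell from 10 to 4 with either, to 6 with the muscle covariate, to 5 without control mouse 2 and cold mouse 15, and to 6 to 9 without 1 mouse. Member transcripts called fell from 5 to 3 with DESeq2 and on flow cell 1 (higher from 3 to 1), and to 2 on flow cell 2 (1 higher, 1 lower). Without 1 mouse 3 to 4 were called, and 1 to 2 were higher. Over all genes DESeq2 called 492 higher and 439 lower, and flow cell 2 alone 429 and 408. The causes were not tested. The fits without control mouse 2 and cold mouse 15 and with the earlier quasi-dispersion estimator were added after seeing the data. Ppm1k did not pass the filter on flow cell 2 and gives no value there. No paired analysis was possible because the mouse numbers of the groups share no number.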
